A study of Mus musculus with 21 samples.

Results

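The 34 genes described here encode enzymes and regulators of cholesterol and fatty acid synthesis. They were taken by name, and each gene was read from the feature of the array that is annotated to it alone. Of the 34 genes, 29 had such a feature, out of 14860 genes measured in all. The measured genes were 15 of 18 sterol enzymes, 9 of 11 fatty acid genes and all 5 regulators and transport genes. Acat2, Idi1 and Me1 had no feature here, Tm7sf2 was read only together with Vps51, and Acss2 only together with Myh7b, so these 5 genes have no value below. The level of each gene was measured in mouse forelimb buds (FBs) with Affymetrix Mouse Exon arrays, with 3 arrays in each of 7 groups. The groups were FBs of E10.5 Swiss embryos dissected freshly (0 h) or after 1, 3 or 6 h of whole-embryo culture, and FBs of E12.5 Swiss embryos dissected freshly or after 1 or 3 h of culture. E stands for embryonic day, the labels name no transgene or drug, and the E12.5 culture had no 6 h group. How many embryos went into a sample is not given in the sources used here, and the labels call the arrays of a group biological replicates.

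Cholesterol is built from acetyl-CoA through mevalonate, farnesyl diphosphate, squalene and lanosterol. The same acetyl-CoA, exported from mitochondria as citrate, feeds fatty acid synthesis, after which elongases lengthen the chains and desaturases add double bonds. Most of these genes are known targets of the sterol regulatory element binding proteins (SREBPs), transcription factors held in the endoplasmic reticulum by INSIG and released by their escort SCAP when sterols are low. In limb development cholesterol is known for its covalent attachment to Hedgehog ligands, and human defects of sterol enzymes such as DHCR7, NSDHL and EBP are known to malform limbs.

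The promoters of 27 of the 34 genes were found by symbol in the RefSeq table of build GRCm38.p6, and the 250 bases before the start site of that table were searched on both strands. Fdps, Fdft1, Sqle, Stard4, Scd1, Scd2 and Fads1 had no entry. The windows were those of 15 sterol enzymes, 3 of them not measured (Acat2, Idi1 and Tm7sf2), of 8 fatty acid genes, 2 of them not measured (Acss2 and Me1), and of 4 regulators. The SREBP site consensus TCACNCCAC occurred in 1 of the 27 windows, that of Hmgcs1, and in 1.23% of the windows of 11894 measured genes. The CCAAT box, bound by NF-Y, occurred in 21 of 27 windows (77.8%) against 39.7% of the measured genes, in 14 of these 15 sterol enzymes and in 4 of these 8 fatty acid genes. The GC box GGGCGG, bound by SP proteins, occurred in 22 of 27 windows (81.5%) against 53% of the measured genes, in 14 of these 15 sterol enzymes and in 4 of these 8 fatty acid genes. The E-box CACGTG occurred in 6 of 27 windows (22.2%) against 8.63%. No match of a motif overlapped a match of another. These matches are letters in a window and not measured binding. Of the sequences below, Hmgcs1 is shown for its SREBP consensus, Lss and Cyp51 as sterol enzymes that fell in E10.5 culture, and Elovl6 as a fatty acid gene that fell with them and whose window held none of the motifs. Capitals mark the SREBP consensus, CCAAT and GC box matches on either strand, so that a CCAAT box of the other strand reads ATTGG. The sequences run 5′ to 3′ on the strand of the gene, from chr13:119690101-119690350 (Hmgcs1, plus strand), chr10:76531355-76531604 (Lss, plus strand), chr5:4104698-4104947 (Cyp51, minus strand) and chr3:129532136-129532385 (Elovl6, plus strand).
Hmgcs1: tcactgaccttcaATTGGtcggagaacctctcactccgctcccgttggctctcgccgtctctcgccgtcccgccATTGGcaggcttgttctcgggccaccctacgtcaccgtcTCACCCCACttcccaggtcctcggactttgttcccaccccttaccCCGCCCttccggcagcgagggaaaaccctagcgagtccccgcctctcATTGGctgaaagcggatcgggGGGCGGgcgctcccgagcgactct
Lss: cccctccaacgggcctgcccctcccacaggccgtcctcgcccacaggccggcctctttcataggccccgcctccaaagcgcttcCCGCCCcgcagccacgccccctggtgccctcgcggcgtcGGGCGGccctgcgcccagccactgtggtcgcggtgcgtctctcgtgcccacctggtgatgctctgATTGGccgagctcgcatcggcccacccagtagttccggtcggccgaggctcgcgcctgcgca
Cyp51: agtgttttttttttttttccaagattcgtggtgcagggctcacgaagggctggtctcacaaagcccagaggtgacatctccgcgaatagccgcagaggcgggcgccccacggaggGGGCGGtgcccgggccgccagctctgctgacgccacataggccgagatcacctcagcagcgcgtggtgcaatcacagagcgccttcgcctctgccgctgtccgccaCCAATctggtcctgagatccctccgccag
Elovl6: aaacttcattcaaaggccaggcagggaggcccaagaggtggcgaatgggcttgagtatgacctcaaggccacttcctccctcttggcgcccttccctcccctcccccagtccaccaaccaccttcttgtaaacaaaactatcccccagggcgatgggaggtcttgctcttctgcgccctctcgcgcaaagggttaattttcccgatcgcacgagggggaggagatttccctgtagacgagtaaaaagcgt
The Hmgcs1 window held its SREBP consensus 137 bases before the start site together with 3 CCAAT boxes and 2 GC boxes. The Lss window held 1 CCAAT box and 2 GC boxes, and the Cyp51 window 1 of each. The last 40 bases of the Lss window lie inside the gene as RefSeq annotates it, and 0 bases of the other 3 windows shown do.

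All levels below are log2 values, so that a change of 1 is a doubling, and levels of different genes are not compared because their probes differ. Array medians ranged from 6.00 to 6.60. The lowest were those of E10.5 3 h replicate 2 and E10.5 6 h replicate 3, and these arrays held the lowest value of their group for 27 and 22 of the 29 genes. Prrx1, 1 of 5 limb mesenchyme markers, was at 11.03 or above on every array. The other markers of this list had their lowest values between 8.62 (Msx1) and 9.86 (Tbx5). After 1 h of culture the median change of the 5 markers was -0.40 for E10.5 and -0.32 for E12.5, each with 1 gene called lower. After 6 h of E10.5 culture this median was -0.26, again with 1 gene called lower. After 3 h the medians were -0.17 (E10.5) and -0.13 (E12.5), with no marker of this list called. Placenta and decidua markers (8 of 10 measured) averaged 7.26 and 7.19 on E10.5 0 h replicates 2 and 3 and 7.08 on 6 h replicate 2, against 4.35 on 0 h replicate 1, 4.38 and 5.26 on the other 6 h arrays, and 2.88 to 3.51 on all remaining arrays. Liver and yolk sac markers (4 of 6 measured) averaged 5.71, 8.86 and 8.86 on E10.5 0 h replicates 1 to 3. They averaged 8.99, 6.82 and 9.27 at E10.5 3 h and 6.02, 7.96 and 9.25 at 6 h. At E12.5 0 h they averaged 6.46, 5.42 and 10.44, and all remaining arrays lay at 5.04 to 5.91. The part of these tissues in the changes below was not tested. The fits used limma over all 14860 genes and all 21 arrays, and a gene was called at a Benjamini-Hochberg adjusted p under 0.05.

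In E10.5 culture most calls came at 6 h. At 1 h none of the 29 genes was called, while 3.91% of all genes were. At 3 h 1 gene, Elovl6, fell (3.45%, beside 1.45% of all genes). Of the 29 changes at 3 h 26 were below 0 (89.7%, beside 53.2% of all genes), with a median of -0.31 beside -0.02 for all genes, and these arrays include the one with the lowest median. At 6 h 15 of 29 genes (51.7%) fell and none rose, against 2.87% of all genes that fell. The 15 genes were 9 of 15 sterol enzymes, 4 of 9 fatty acid genes and 2 of 5 regulators. In bulk tissue fewer cells of a type and less RNA per cell cannot be told apart. All 29 changes at 6 h were below 0 as deposited (beside 55.9% of all genes), and 27 of 29 were when each array was shifted to a common median. For 22 of 29 genes (75.9%) the 6 h arrays all lay below the 0 h arrays, as they did for 10.8% of all genes. The median change at 6 h was -0.64 for the sterol enzymes and -0.44 for the fatty acid genes, beside -0.04 for all genes. The number of genes that fell was 8 without 6 h replicate 2 or without 6 h replicate 3, and 7 when the 6 arrays were fitted alone. At 6 h the distal limb markers (4 of 4 measured) and limb ectoderm and ridge markers (5 of 6) fell too, and 3 of 5 coelomic mesothelium markers rose. The distal limb markers averaged 7.23 to 7.36 at 6 h against 9.85 to 9.92 at 0 h, the ectoderm and ridge markers 7.79 to 8.61 against 9.35 to 9.56, and the mesothelium markers 8.31 to 8.94 against 6.51 to 7.12, and their part in the fall was not tested. With the placenta and decidua mean as a covariate 16 of the 29 genes fell.

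**Figure D1:**
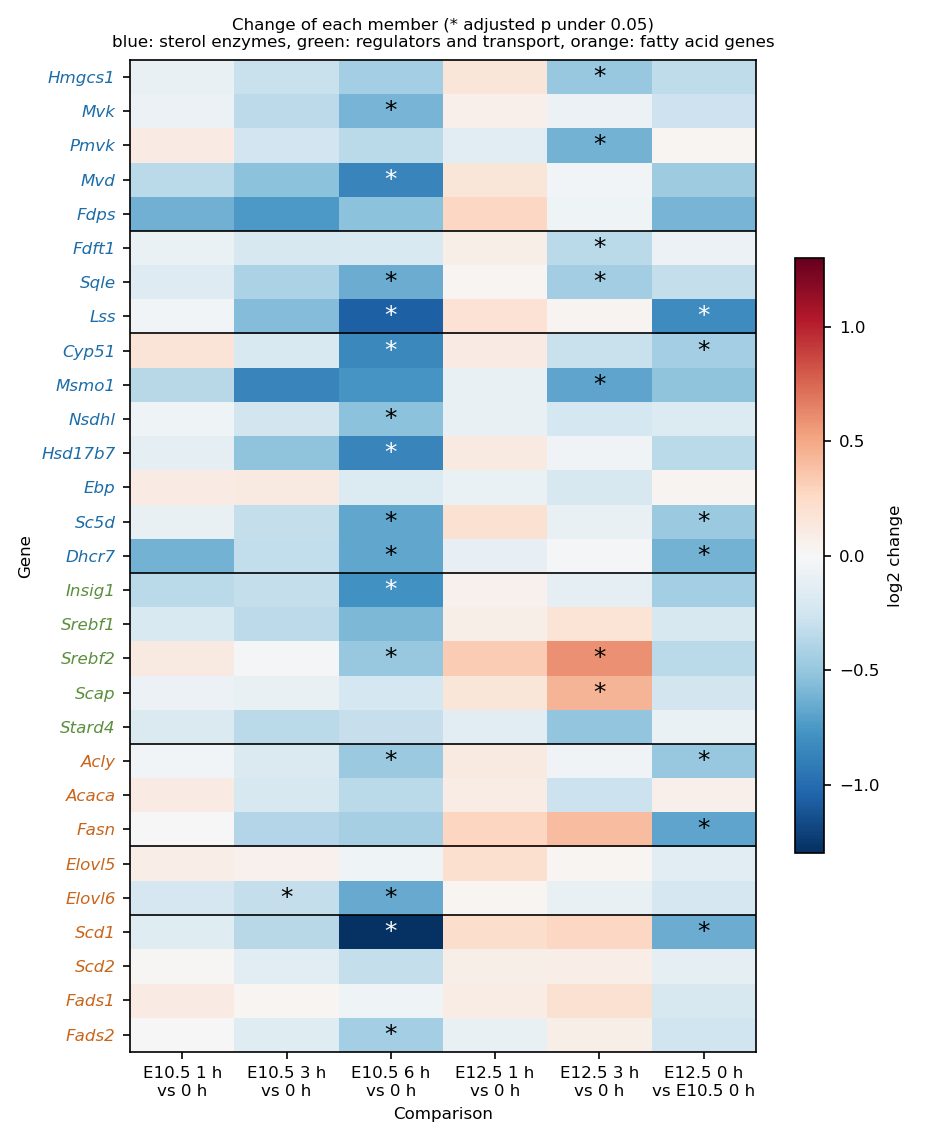
Log2 change (colour) of each of the 29 measured genes (rows, grouped by role, early mevalonate enzymes at the top and desaturases at the bottom) in 6 comparisons (columns). Stars mark an adjusted p under 0.05. The E10.5 6 h column holds 15 stars and only negative changes, while the E12.5 3 h column holds 5 falls among sterol enzymes and 2 rises among regulators.

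Among the early mevalonate enzymes Mvd and Mvk fell at 6 h. Mvd, which decarboxylates mevalonate diphosphate, was at 9.23, 8.63 and 8.55 at 0 h and at 8.24, 7.84 and 7.76 at 6 h. The 6 h arrays were all lower (change -0.86, SE 0.21, adjusted p 0.0179). Mvk, the mevalonate kinase, was at 9.62, 9.62 and 9.58 at 0 h and at 9.38, 8.92 and 8.70 at 6 h, again with no overlap (change -0.60, SE 0.14, adjusted p 0.0146). Hmgcs1, which makes HMG-CoA, and Pmvk, the next kinase after Mvk, did not pass, with changes of -0.44 (adjusted p 0.123) and -0.35 (adjusted p 0.301). Fdps, which makes farnesyl diphosphate, changed by -0.53 (adjusted p 0.415) on a dim feature, with a mean over all arrays at the 17.8th percentile of genes.

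Of the squalene enzymes Sqle and Lss fell. Lss, which closes squalene epoxide into lanosterol, was at 9.76, 9.82 and 9.71 at 0 h and at 9.04, 8.71 and 8.33 at 6 h. It fell 2.09-fold (change -1.07, SE 0.22, adjusted p 0.00617), and its 3 h arrays spread from 8.58 to 9.80. Sqle, the squalene epoxidase, was at 10.59, 10.41 and 10.49 at 0 h, and at 9.99, 9.91 and 9.66 at 6 h. All 6 h values were lower (change -0.64, SE 0.14, adjusted p 0.0072). Fdft1, the squalene synthase that commits farnesyl diphosphate to sterols, changed by -0.20 (adjusted p 0.372).

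The enzymes after lanosterol held 5 genes that fell of 7 measured. Cyp51, the lanosterol demethylase, was at 10.41, 9.90 and 10.12 at 0 h and at 10.41, 10.24 and 10.28 at 1 h. At 3 h it was at 10.17, 9.73 and 9.93, and at 6 h at 9.32, 9.31 and 9.27. The 6 h arrays were thus the lowest and lay close together, with a change of -0.84 from 0 h (SE 0.12, adjusted p 0.000245) and -0.64 from 3 h (adjusted p 0.00942). Hsd17b7, a sterol ketoreductase, was at 9.28, 9.53 and 9.41 at 0 h and at 8.75, 8.61 and 8.27 at 6 h (change -0.86, SE 0.18, adjusted p 0.00738). Sc5d, a sterol desaturase, was at 10.39, 10.14 and 10.23 and then at 9.64, 9.61 and 9.48 (change -0.68, SE 0.15, adjusted p 0.00913). Neither gene overlapped between 0 h and 6 h. Nsdhl, which takes part in removing methyl groups, was at 11.07, 11.05 and 10.94 and then at 10.49, 10.45 and 10.54 (change -0.53, adjusted p 0.0109). Dhcr7, the reductase of the final step to cholesterol, was at 9.69, 9.29 and 8.94 at 0 h and at 9.02, 8.52 and 8.36 at 6 h (change -0.67, adjusted p 0.0299). Its groups overlapped, and it was already at 8.60 to 8.84 at 1 h (change -0.61, adjusted p 0.0638). Msmo1, the methylsterol oxidase, was at 10.40, 10.08 and 10.24 at 0 h, at 9.91, 8.54 and 9.69 at 3 h and at 9.58, 9.53 and 9.31 at 6 h. All its 3 h and 6 h arrays were lower than at 0 h, yet it did not pass at either time (changes -0.86 and -0.77, adjusted p 0.0504 and 0.0687), and the low 3 h value was on the array with the lowest median. Ebp, the sterol isomerase, changed by -0.17 at 6 h (adjusted p 0.557).

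Of the regulators Insig1 and Srebf2 fell at 6 h. Insig1, which retains the SREBP precursors and is itself an SREBP target, was at 10.52, 10.17 and 10.03 at 0 h and at 9.62, 9.54 and 9.20 at 6 h. All 6 h arrays were lower (change -0.79, SE 0.21, adjusted p 0.0307). Srebf2, which encodes the SREBP that acts mainly on sterol genes, was at 11.69, 11.63 and 11.49 at 0 h and at 11.40, 10.89 and 11.04 at 6 h, lower without overlap (change -0.49, SE 0.14, adjusted p 0.0346). It had been at 11.49 to 11.71 at 3 h, overlapping 0 h, and its 6 h call was lost in 9 of 17 alternative settings. Srebf1, whose product acts mainly on fatty acid genes, was at 9.16, 8.83 and 8.72 and then at 8.74, 8.20 and 8.02, with groups that overlapped (change -0.59, adjusted p 0.0748). Scap, the escort of the SREBPs, changed by -0.23 (adjusted p 0.393) and Stard4, a carrier of cholesterol, by -0.30 (adjusted p 0.428).

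Among the fatty acid genes the values ranged from almost level to the lowest change of all 29 genes. Scd1, which puts the initial double bond into saturated fatty acids, was at 11.33, 10.94 and 10.79 at 0 h, at 10.83, 10.89 and 10.85 at 1 h and at 11.15, 10.12 and 10.69 at 3 h. At 6 h it was at 9.84, 9.79 and 9.56, below every earlier E10.5 array. It fell 2.44-fold from 0 h (change -1.29, SE 0.19, adjusted p 0.000239) and 1.9-fold from 3 h (change -0.92, adjusted p 0.0137). Its neighbour and paralog Scd2 changed by -0.31 (adjusted p 0.0929), with all 6 h arrays lower. The genes lie at chr19:44394450-44407709 (Scd1) and chr19:44293676-44306864 (Scd2) in GRCm38.p6, and cross-hybridization between them was not tested.

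Elovl6, the elongase of saturated and monounsaturated chains, was at 10.88, 11.05 and 10.94 at 0 h and at 10.68, 10.73 and 10.82 at 1 h. It was at 10.61, 10.55 and 10.77 at 3 h and at 10.32, 10.21 and 10.37 at 6 h. The 0 h arrays were all higher than the later ones and the 6 h arrays all lower than the earlier ones. The change was -0.31 at 3 h (SE 0.09, adjusted p 0.0436) and -0.66 at 6 h (SE 0.09, adjusted p 7.61e-05), the lowest adjusted p of the 29 genes, and -0.34 between 3 h and 6 h (adjusted p 0.0427). Its 3 h call was lost in 10 of 17 alternative settings with the same direction. These included the shift to a common median, and leaving out replicate 2 of either group or replicate 3 of 0 h. The call between 3 h and 6 h was lost in 9 of 17, also with the same direction. The other elongase, Elovl5, which acts on polyunsaturated chains, changed by -0.06 at 6 h (adjusted p 0.755). Acly, which splits citrate into acetyl-CoA, was at 11.11, 10.75 and 10.66 at 0 h and at 10.49, 10.29 and 10.29 at 6 h, lower without overlap (change -0.49, SE 0.14, adjusted p 0.0468). Fads2, a desaturase of polyunsaturated chains, was at 12.09, 12.26 and 12.22 and then at 11.97, 11.66 and 11.62, also without overlap (change -0.44, adjusted p 0.0124). Its neighbour Fads1 changed by -0.06 (adjusted p 0.725). Acaca, which makes malonyl-CoA, and Fasn, which builds palmitate from it, had all 6 h arrays lower but did not pass (changes -0.35 and -0.44, adjusted p 0.319 and 0.16).

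Between 3 h and 6 h 3 of the 29 genes (10.3%) fell, Scd1, Cyp51 and Elovl6, against 1.62% of all genes. Leaving out arrays changed this count to 6 (6 h replicate 1 left out), 1 (6 h replicate 3), 0 (3 h replicate 1) or 5 (3 h replicate 2).

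**Figure D2:**
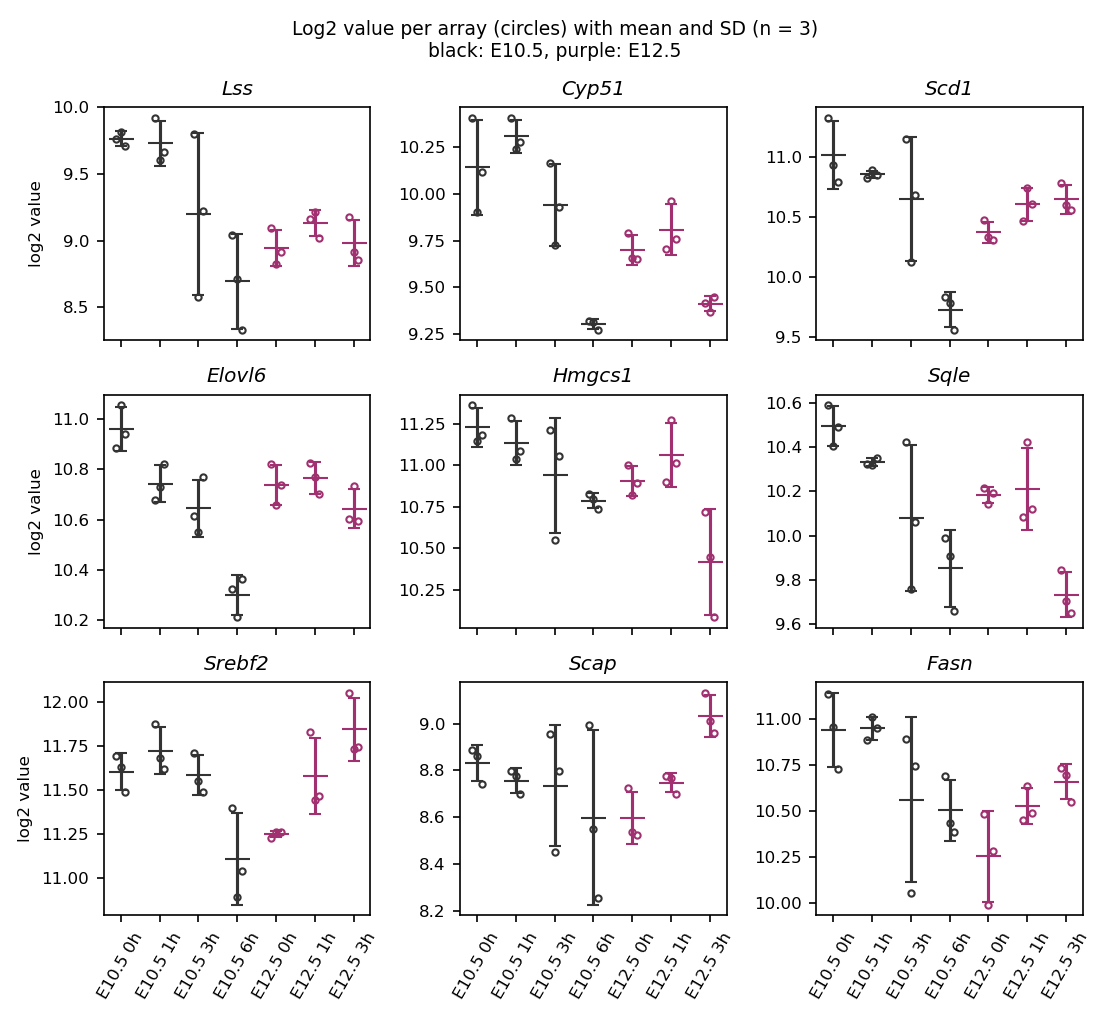
Log2 value on each array (circles), with the mean and SD of 3 arrays, for 9 genes in the 7 groups (x axis, E10.5 in black and E12.5 in purple). Scd1, Cyp51 and Elovl6 have their lowest mean at E10.5 6 h, Hmgcs1 and Sqle at E12.5 3 h, and Srebf2 has its lowest mean at E10.5 6 h and its highest at E12.5 3 h.

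In E12.5 culture some sterol enzymes fell while 2 regulators rose. At 1 h none of the 29 genes was called, beside 2.11% of all genes. Of the 29 changes 22 were above 0 and 7 below (24.1%, beside 50% of all genes). At 3 h 5 sterol enzymes fell, and Srebf2 and Scap rose. The 5 falls are 17.2% of the 29 genes, close to the 17.6% of all genes that fell. They are 33.3% of the 15 sterol enzymes and 0% of the 9 fatty acid genes. The 2 rises are 6.9% of the 29 genes, beside 9.94% of all genes that rose. The 3 h arrays all lay below the 0 h arrays for 8 genes (27.6%, beside 26.6% of all genes) and all above for 7 genes (24.1%, beside 22.0%). Of the 8 lower genes 7 were sterol enzymes, and of the 7 higher genes none was. The median change was -0.21 for the sterol enzymes, 0.07 for the fatty acid genes and 0.01 for all genes. The count of 7 calls rests on every array, since leaving out any array of either group left 1 to 4 genes called, the fewest without 3 h replicate 2. At this stage 3 of 5 mesothelium markers rose too, from averages of 5.68 to 5.74 at 0 h to 6.07 to 6.58 at 3 h, and their part was not tested. None of the distal limb markers was called.

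The falling genes were 2 early mevalonate enzymes, 2 squalene enzymes and 1 enzyme after lanosterol. Hmgcs1 was at 10.9985, 10.82 and 10.89 in fresh FBs. Its values were 10.90, 11.27 and 11.01 after 1 h, and 10.72, 10.44 and 10.08 after 3 h. All 3 h arrays were lower, with a change of -0.49 from 0 h (SE 0.16, adjusted p 0.0345) and -0.65 from 1 h (adjusted p 0.0177). Pmvk was at 7.70, 7.49 and 7.48 and then at 6.88, 6.83 and 7.10 (change -0.62, SE 0.19, adjusted p 0.0214). Fdft1 was at 10.84, 10.91 and 10.93 and then at 10.60, 10.496 and 10.55 (change -0.35, SE 0.12, adjusted p 0.0405). Neither gene overlapped between 0 h and 3 h. Sqle was at 10.21, 10.14 and 10.19 at 0 h and at 9.84, 9.70 and 9.65 at 3 h (change -0.45, SE 0.14, adjusted p 0.0201). Msmo1 was at 9.64, 9.85 and 9.66 and then at 9.20, 9.11 and 8.77 (change -0.68, SE 0.24, adjusted p 0.0439). Both were lower on all 3 h arrays. Cyp51 was also lower on every 3 h array without passing against 0 h (change -0.29, adjusted p 0.0934), and it passed against 1 h (change -0.40, adjusted p 0.0452). Against 1 h 4 genes fell, Hmgcs1, Fdft1, Sqle and Cyp51 (13.8% of the 29 genes, beside 8.18% of all genes). Lss was at 9.09, 8.83 and 8.91 at 0 h and at 9.18, 8.92 and 8.85 at 3 h, which overlap (change 0.04, adjusted p 0.931).

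Srebf2 was at 11.23, 11.26 and 11.26 in fresh FBs. It was at 11.83, 11.45 and 11.47 after 1 h and at 12.05, 11.74 and 11.75 after 3 h. All cultured arrays were higher than the fresh ones, and the 3 h change was 0.60 (SE 0.14, adjusted p 0.00337), a 1.51-fold rise. Scap was at 8.72, 8.54 and 8.53 at 0 h and at 9.13, 9.01 and 8.96 at 3 h, higher without overlap (change 0.44, SE 0.15, adjusted p 0.0357). Srebf1 was higher on all 3 h arrays without passing (change 0.18, adjusted p 0.56). Insig1 overlapped (change -0.13, adjusted p 0.724), and Stard4 was lower on all 3 h arrays without passing (change -0.51, adjusted p 0.0755). None of the 9 fatty acid genes passed. The largest change among them was that of Fasn, which was at 10.49, 9.99 and 10.29 at 0 h and at 10.73, 10.70 and 10.55 at 3 h. Its 3 h arrays were all higher (change 0.41, adjusted p 0.101), as were those of Scd1 (change 0.27, adjusted p 0.323), Scd2 (change 0.09, adjusted p 0.617) and Fads1 (change 0.19, adjusted p 0.0756).

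**Figure D3:**
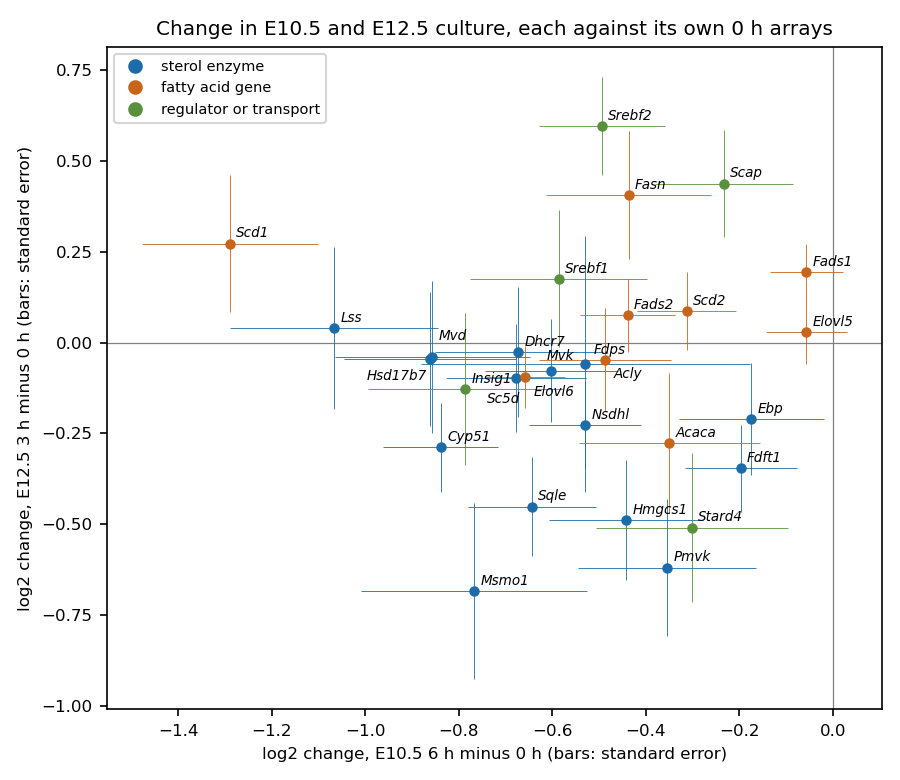
Log2 change of each of the 29 genes at E10.5 6 h (x axis) and at E12.5 3 h (y axis), each against its own 0 h arrays, with standard errors as bars. All points lie left of 0 on the x axis, while on the y axis Srebf2 and Scap lie highest and Msmo1 and Pmvk lowest.

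The E10.5 6 h and E12.5 3 h comparisons share no arrays but differ in culture time. Of the 9 sterol enzymes that fell in the former and the 5 in the latter, 1 was shared, Sqle (11.1% and 20% of the lists). Srebf2 fell in the former and rose in the latter. The call of its fall was lost in 9 of 17 alternative settings with the same direction, and that of its rise was kept in all 16. Matched at 3 h, the E12.5 change was set against the E10.5 change. The difference passed for 2 of the 29 genes, Fasn (0.78, SE 0.25, adjusted p 0.0453) and Srebf2 (0.61, SE 0.19, adjusted p 0.0416), both higher at E12.5, beside 4.83% of all genes. For Fasn the E10.5 change was -0.38 and included the array with the lowest median (10.05, against 10.89 and 10.74 on the other 3 h arrays). The call of Fasn or Srebf2 was lost in 10 and 11 of 22 alternative settings, each time with the same direction, and leaving out 1 of the 12 arrays left 0 to 4 genes called. At 1 h the difference passed for none of the 29 genes, beside 0.538% of all genes.

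Sterol and fatty acid genes were compared within arrays, as the mean log2 value of the 15 sterol enzymes minus that of the 9 fatty acid genes, which an array-wide shift does not move. The genes were chosen with results known, so this difference is described without a test. In E12.5 culture the fresh arrays lay between -1.76 and -1.66, the 1 h arrays between -1.81 and -1.73 and the 3 h arrays between -2.08 and -1.96. Only the 3 h arrays stood apart, with a change of -0.31 (SE 0.04) made of -0.24 in the sterol enzymes and 0.07 in the fatty acid genes. In E10.5 culture the fresh arrays ran from -1.68 to -1.62. The 1 h arrays ran from -1.88 to -1.66, the 3 h arrays from -1.95 to -1.72 and the 6 h arrays from -1.84 to -1.77. The 3 h and 6 h arrays were all below 0 h, with changes of -0.19 (SE 0.07) and -0.16 (SE 0.03). At 6 h the sterol enzymes changed by -0.61 and the fatty acid genes by -0.45, so that both groups were lower.

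**Figure D4:**
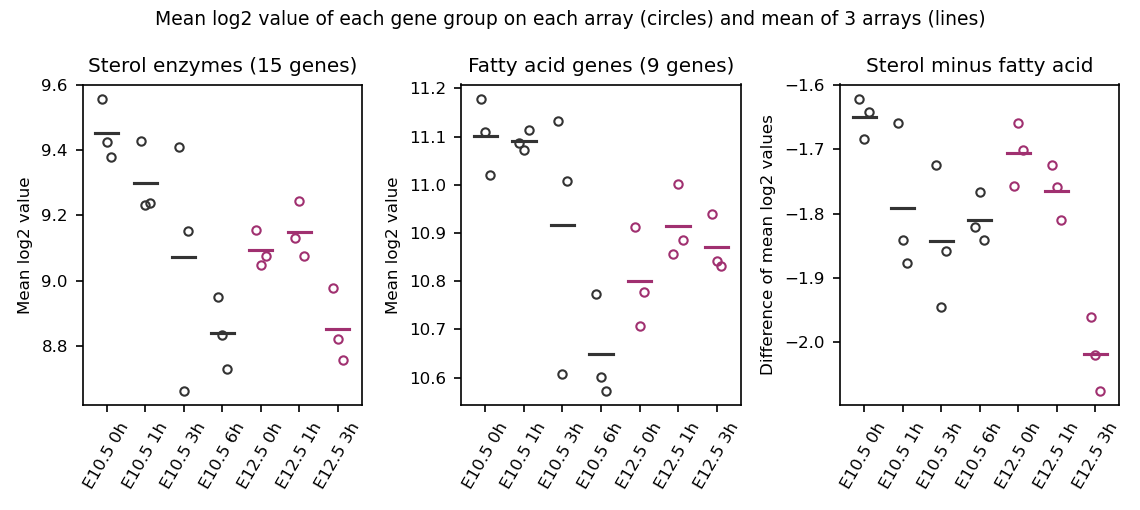
Mean log2 value per array (circles) of the 15 sterol enzymes (left), of the 9 fatty acid genes (middle) and their difference (right) in the 7 groups, with lines at the mean of 3 arrays. Both gene groups have their lowest mean at E10.5 6 h, and the difference has its lowest at E12.5 3 h, where it runs from -2.08 to -1.96. The absolute difference depends on the probes, and only its change between groups is read.

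Fresh E12.5 FBs were lower than fresh E10.5 FBs for 7 of the 29 genes (24.1%), against 7.39% of all genes, and higher for none. For 23 of 29 genes (79.3%) the groups did not overlap and E12.5 was lower, beside 17.0% of all genes. The 7 genes were the sterol enzymes Lss (9.76 to 8.94 on average, change -0.82, adjusted p 0.0108), Dhcr7 (-0.61, adjusted p 0.0163), Sc5d (-0.48, adjusted p 0.0232) and Cyp51 (-0.44, adjusted p 0.0125), and the fatty acid genes Fasn (-0.69, adjusted p 0.0076), Scd1 (-0.64, adjusted p 0.0165) and Acly (-0.50, adjusted p 0.0146). The count fell to 2 when E10.5 0 h replicate 1 was left out and to 4 when E12.5 0 h replicate 2 was. The sterol-minus-fatty acid difference changed by -0.06 with groups that overlapped. As deposited 26 of 29 changes were below 0 (89.7%, beside 46.8% of all genes), with Pmvk, Ebp and Acaca at 0.03, 0.04 and 0.06. After a shift to a common median or quantile normalization 29 of 29 were below 0. A shift to a common median moved the median of all genes by -0.25, and the share of higher genes among all genes called went from 72.7% to 29.1% (49.1% after quantile normalization). Under these scalings 24 and 19 of the 29 genes were lower, beside 24.4% and 16.2% of all genes. The placenta and decidua markers were lower in 7 of 8 genes and the mesothelium markers in 3 of 5, while skeletal muscle markers were higher in 3 of 4 and macrophage markers in 2 of 4. Of the 6 limb ectoderm and ridge markers 2 were lower and 1 was higher. The part of these cell types was not tested. This comparison shares its E10.5 0 h arrays with the E10.5 6 h comparison, and 6 of the 7 genes had also fallen there. At 1 h Cyp51 (-0.50, adjusted p 0.0081) and Fads2 (-0.35, adjusted p 0.0235) were lower at E12.5, 6.9% of the 29 genes beside 4.35% of all genes. At 3 h Hmgcs1 (-0.52, adjusted p 0.0237) and Cyp51 (-0.53, adjusted p 0.00384) were lower, 6.9% of the 29 genes beside 11% of all genes. The 3 h groups did not overlap with E12.5 lower for 1 gene, Cyp51 (3.45%, beside 17.2% of all genes).

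Further genes of these routes were read from lists of 10 sterol genes (5 measured), 10 sterol efflux and storage genes (8 measured) and 21 fatty acid genes (17 measured). At E10.5 6 h 4 of these 30 genes fell (13.3%, beside 2.87% of all genes) and 1 rose (3.33%, beside 3.89%). Aacs, which activates acetoacetate for lipid synthesis, fell by 0.82 (SE 0.20, adjusted p 0.0185), and Slc25a1, the mitochondrial citrate carrier that supplies Acly, fell by 0.65 (SE 0.14, adjusted p 0.00849). Acsl4, which activates polyunsaturated fatty acids, fell by 0.91 (SE 0.13, adjusted p 0.000239), and Mylip, the ligase that degrades the LDL receptor, fell by 0.62 (SE 0.15, adjusted p 0.0159). Cpt1a, which admits fatty acids to mitochondria for oxidation, rose by 0.53 (SE 0.14, adjusted p 0.0336). At E12.5 3 h 6 fell (20%) and 2 rose (6.67%), close to the 17.6% and 9.94% of all genes that did. Ggps1, which makes geranylgeranyl diphosphate from the mevalonate route, fell by 0.53 (SE 0.11, adjusted p 0.00223), and Acsl5, Gpam, Elovl2, Hsd17b12 and Oxsm fell by 0.31 to 0.58 (adjusted p 0.00414 to 0.0497). The elongase Elovl1 rose by 0.75 (SE 0.18, adjusted p 0.00556) and Mlxip, a glucose-responsive transcription factor, by 0.63 (SE 0.14, adjusted p 0.00314). In fresh FBs 10 of the 30 genes were higher at E12.5 (33.3%, beside 19.7% of all genes) and 4 were lower (13.3%, beside 7.39%). The higher genes included the efflux genes Abca1 (0.94, adjusted p 0.00117) and Apoe (0.80, adjusted p 0.00126), Mylip (0.74, adjusted p 0.00115), Cpt1a (0.96, adjusted p 8.09e-05) and its transcriptional activator Ppara (0.62, adjusted p 0.000372), and the others were Elovl7, Ggps1, Oxsm, Dhdds and Gpam (0.26 to 0.69). The lower genes were Elovl2, Acsl4, Aacs and Mlxip, with changes of -0.74 to -0.62.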

How the data were processed

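Levels were measured on 21 arrays of mouse FBs. The authors made the deposited log2 values with RMA in the Affymetrix Expression Console. As a method RMA corrects background, normalizes by quantiles and summarizes the probes of each transcript cluster. The deposited arrays still had medians from 6.00 to 6.60, and it is not stated whether all 21 were normalized together. Versions and annotation build are not given in the sources used here. The table held 23332 features with 0 missing values. The 14996 features of 1 gene were kept, and for the 135 genes with several features the one of highest mean, which left 14860 genes with no filter on low values. limma 3.58.1, run in R 4.3.3, fitted the 7 group means with 14 residual and 3.09 prior degrees of freedom and Benjamini-Hochberg adjustment over all genes. Tests were two-sided. An exact permutation of 3 against 3 arrays cannot go below p = 0.1. The number of arrays limits the precision, and array intensities before RMA were not analysed here. Replicate arrays correlated at 0.977 to 0.996. The script was tested on simulated data. Members, gene lists and markers were chosen with earlier results of these data known. The text gives full values for genes called in a comparison, up to 10 by size, for the regulators, and for 2 to 4 uncalled genes of each role. Alternatives changed the scaling, the filter on dim genes, the replicate block, array weights, the arrays fitted, a decidua covariate and the test, and left out each array in turn.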

Additional observations from a re-analysis of the deposited data

Results flagged for a closer look

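For 2 genes the change at 3 h differed between E12.5 and E10.5 culture by a test of the difference itself in limma. The difference (E12.5 minus E10.5) was 0.78 for Fasn (SE 0.25, adjusted p 0.0453) and 0.61 for Srebf2 (SE 0.19, adjusted p 0.0416). Fasn changed by -0.38 at E10.5 and by 0.41 at E12.5, and neither change was called alone. Srebf2 changed by -0.02 at E10.5 and by 0.60 at E12.5. The 2 genes are 6.9% of the 29, beside 4.83% of all genes called higher, and the calls were lost in 10 and 11 of 22 alternative settings.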

How the results depend on the processing

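Each of 35 changes of single genes called in the main comparisons was recomputed in 16 to 22 alternative settings. Of the 591 recomputed changes 444 kept the call, 147 lost it with the same direction and 0 turned. At E10.5 6 h Cyp51, Elovl6, Hsd17b7, Lss, Sc5d and Scd1 kept theirs in all 17, each at its own threshold. Among the settings, averaging all features of a gene left the values of the 29 genes unchanged, since none had more than 1 feature. At E10.5 6 h unadjusted p under 0.01 was looser than the adjusted threshold, so that setting could lose no call. The methods keep array transcripts at p under 0.01 without naming the test. For other experiments they name a Mann-Whitney unpaired t-test, words that join a rank test and a t-test. The rank test was not run here. An unpaired t-test at that threshold, which is among the 17 settings, called 11 of 29 genes at 6 h. After Benjamini-Hochberg adjustment it called 0, and this adjusted t-test is counted apart from the 17 and the 591. The t-test was not run on the differences between stages. Counts of called genes that moved by over 1.5 times follow, and the causes were not tested. E10.5 1 h (0 called) gave 1 after a common-median shift, quantile normalization, without the 30% dimmest genes, with array weights, with the decidua covariate and at unadjusted p under 0.01. E10.5 3 h (1 called) gave 4 after the shift, 4 after quantile normalization, 2 without dim genes, 6 with weights, 3 at unadjusted p under 0.01, and 0 with only its own groups, with the covariate, with the t-test at either threshold, and without the 2 arrays of lowest median, a setting chosen after seeing the data. At E10.5 3 h the genes called after the shift were Hsd17b7, Lss, Sqle and Msmo1, and Elovl6 was not among them. After quantile normalization they were Elovl6, Hsd17b7, Sqle and Msmo1. E10.5 6 h (15) gave 7 with only its groups. E10.5 6 h against 3 h (3) gave 12 with weights, 0 with only its groups, 0 with the covariate, and 1 and 0 with the t-test before and after adjustment. E12.5 1 h (0) gave 2 with weights and 1 with the t-test. E12.5 3 h (7) gave 11 with weights. E12.5 against E10.5 at 0 h (7) gave 24 after the shift, 19 after quantile normalization, 11 without dim genes, 17 with weights and 11 with only its groups, and its sterol-minus-fatty acid difference moved from -0.06 to -0.12 after quantile normalization. The stage difference at 3 h (2) gave 5 with weights, 1 with only its groups and 1 without the 2 arrays of lowest median. Leaving out 1 array gave 0 to 1 genes at E10.5 1 h, 0 to 3 at 3 h, 8 to 17 at 6 h, 0 to 6 for 6 h against 3 h, 0 to 0 at E12.5 1 h, 1 to 4 at E12.5 3 h, 2 to 7 between stages at 0 h, and 0 to 0 and 0 to 4 for the stage difference at 1 h and 3 h.

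With the replicate number as a block 1, 0, 16 and 3 genes were called at E10.5 1 h, 3 h, 6 h and 6 h against 3 h, 0 and 7 at E12.5 1 h and 3 h, 8 between stages, and 0 and 2 for the stage difference. The mean of its group was subtracted from each gene's values. Correlations of these deviations between same-numbered arrays of the compared groups ran from -0.19 to 0.33, and no comparison had all above 0.1. The highest were 0.328, at E10.5 6 h against 0 h, and 0.27, at E10.5 6 h against 3 h. The next was 0.193, at 6 h against 0 h. With 3 arrays per group these values cannot show whether arrays of a number share a litter or a day, which the labels do not say. The share of higher genes among all called went from 71.3% to 55.7% at E10.5 1 h, 60.8% to 77.0% at E12.5 1 h, 36.1% to 49.5% at E12.5 3 h, 27.5% to 47.8% for the stage difference at 1 h and 33.9% to 54.8% at 3 h after the common-median shift.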
